A study of Mus musculus with 13 samples.

Results

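Large subunit cytosolic ribosomal protein genes (Rpl genes) were followed in whole quadriceps muscle of young and aged mice, with and without SW033291, which blocks 15-PGDH, an enzyme that breaks down prostaglandins. A gene was a member if its name was Rpl followed by a number, with or without a final a, x or l, or was Rplp0, Rplp1 or Rplp2. It also had to reach 1 TPM (a transcript's share of a library, corrected for its length and given on a fixed total) in 3 or more of the 13 libraries. Names of pseudogenes were left out, and Rpl3l, the striated muscle paralog of Rpl3, was included. Of 24015 genes listed, 50 names matched and 49 of them passed the level filter, as did 11876 genes in all. Rpl10l, a paralog of Rpl10 known from testis, was listed at 0 TPM in each of the 13 libraries and was not tested. Of the 49 members, 48 were at 1 TPM or more in every library. The exception was Rpl39l, which passed through 3 young libraries and 1 aged library of batch 1. Its differences with age, between batches and between young and batch 2 were thus partly set by the filter.

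The large subunit of the cytosolic ribosome holds the centre that joins amino acids and the tunnel through which the growing protein leaves. Its proteins are made in near equal numbers and are assembled with ribosomal RNA in the nucleolus. Many of their mRNAs start with a run of pyrimidines, the terminal oligopyrimidine (TOP) tract, through which mTORC1 and the RNA-binding protein LARP1 control their translation. Striated muscle is known for a switch at the peptidyl transferase centre, where Rpl3l takes the place of Rpl3 in adult fibres.

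All mice were C57BL/6 and were injected intraperitoneally each day for 4 weeks. The vehicle was 10% ethanol, 5% Cremophor EL and 85% of a 5% dextrose solution, and SW033291 was given at 5 mg/kg. The 4 groups were young vehicle of batch 1 (age 3 months, replicates 1, 3, 4 and 5), aged vehicle of batch 1 (over 24 months, replicates 2, 3 and 4), aged vehicle of batch 2 (over 24 months, replicates 2, 3 and 8) and aged SW033291 of batch 2 (over 24 months, replicates 1, 4 and 6). Age was compared within batch 1 and SW033291 within batch 2. The aged vehicle groups of the 2 batches, which share age and treatment by their labels, were also compared. This contrast shares its libraries with those of age and SW033291, so its values are not independent of theirs. The labels do not say that each library is a separate animal, and p-values then measure only the spread between libraries, which may be technical. No young or treated library exists in the other batch, so age and SW033291 cannot be compared across batches without the batch.

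Every library held the 16 myofibre markers at 1 TPM or more, and their sum was between 231000 and 285000 TPM. Neutrophil markers summed to 1780 TPM in aged replicate 4 of batch 1, 788 TPM in aged vehicle replicate 2 of batch 2 and 235 TPM in SW033291 replicate 4, against 1.58 to 23.3 TPM in the other 10 libraries. Of the 14 neutrophil markers in the table, 8 were at 0 in all young libraries, among them S100a9, Camp, Ngp and Mpo. Aged replicate 4 of batch 1 also had the highest erythroid sum (3820 TPM) and the lowest myofibre sum. In whole muscle, fewer cells of a type and less RNA per cell cannot be told apart. The TPM table keeps no read counts, so the depth behind each value is unknown.

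The start of a ribosomal protein gene carries the sequence that its mRNA is known to be controlled by, and it is shown here for members on which the comparisons below turn. Each window holds 15 bases before and 15 bases from the annotated RefSeq start of the mouse GRCm38.p6 assembly, 5′ to 3′ on the strand of the gene. Capitals mark a C within 5 bases of the start that is followed by at least 4 C or T, the rule used here for an oligopyrimidine start, and the pyrimidine run from there within the window. In Rpl13a the run is 14 bases long and goes past the window.
Rpl28 (chr7:4792950-4792979, plus strand): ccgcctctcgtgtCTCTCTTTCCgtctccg
Rpl18 (chr7:45718056-45718085, plus strand): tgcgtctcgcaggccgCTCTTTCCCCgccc
Rpl35 (chr2:39005117-39005146, minus strand): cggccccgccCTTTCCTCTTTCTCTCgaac
Rpl12 (chr2:32961697-32961726, plus strand): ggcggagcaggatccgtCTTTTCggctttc
Rpl13a (chr7:45128731-45128760, minus strand): gaaaccctgcgacaagaCCTCCTCCTTTCC
Rplp2 (chr7:141447636-141447665, plus strand): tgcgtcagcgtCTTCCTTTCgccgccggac
The windows of 4 further members held no such run at the annotated start.
Rplp0 (chr5:115559452-115559481, plus strand): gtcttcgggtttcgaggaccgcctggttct
Rpl41 (chr10:128549154-128549183, minus strand): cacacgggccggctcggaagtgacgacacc
Rpl11 (chr4:136053379-136053408, minus strand): ctgacccataaggccacggggccggaagtc
Rpl3l (chr17:24727811-24727840, plus strand): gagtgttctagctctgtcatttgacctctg
RefSeq promoters were found for 37 of the 49 members (44 promoters). An oligopyrimidine start stood in 40.9% of the members' promoters, 43.3% of those of small subunit genes and 18.3% of all 32851 promoters of the table. Over the whole promoter sequences of the table and both strands, the ETS core CTTCCGG stood in 34.1% of the members' promoters and 8.86% of all, the SP1 box GGGCGG in 61.4% and 35.7%, and the E box CACGTG in 15.9% and 7.15%. A match describes letters at an annotated start or, for the ETS, SP1 and E box sequences, anywhere in the promoter sequence. No match is a measured start site.

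Large subunit mRNAs were among the abundant transcripts of quadriceps. The 49 genes together made up 2.37% to 3.47% of all TPM in a library. Their mean levels over the 13 libraries had a median of 509.3 TPM and quartiles of 362.0 and 743.0 TPM, and 44 of 49 were at 100 TPM or more in every library. The exceptions were Rpl22, Rpl3, Rpl26, Rpl30 and Rpl39l. The highest means were those of Rplp1, a stalk protein (1540 TPM), Rpl41, the smallest protein of the ribosome (1123 TPM), and Rpl23a, which lies at the exit of the tunnel (1069 TPM). The lowest were those of Rpl39l, a paralog of Rpl39 known from male germ cells (0.4485 TPM), Rpl30 (32.26 TPM) and Rpl26 (75.47 TPM). Rplp1 was the highest member in each of the 13 libraries. The ranges of Rpl41 (771.7 to 1717 TPM), Rpl23a (884.2 to 1368 TPM) and Rpl4 (852.5 to 1288 TPM) overlapped, so their order was not set beyond their spread.

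**Figure D1:**
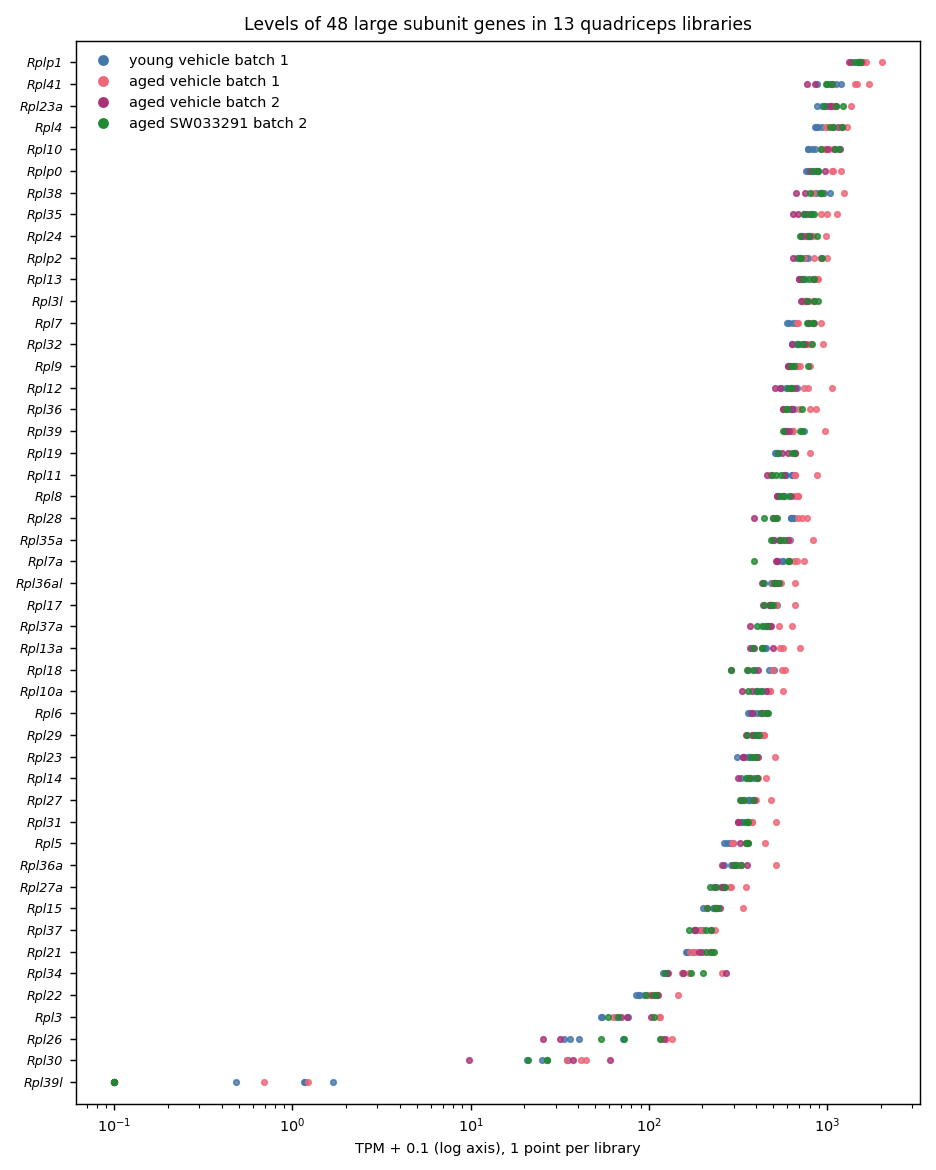
TPM plus 0.1 on a log axis for 48 large subunit genes, ordered by mean, with 1 point per library coloured by group. Most genes lie within a narrow range between 200 and 1000 TPM, while Rpl39l, Rpl30, Rpl26 and Rpl3 lie far below.

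Levels within groups were tight for most members. The residual SD of log2(TPM + 1) had a median of 0.138 and was under 0.2 for 41 of 49 genes. It was lowest for Rpl29 (0.0663) and Rpl3l (0.0816) and highest for Rpl26 (0.686) and Rpl30 (0.666). For those last members, and for Rpl34, the authors' deposited table of SW033291 lists mean levels of 0, 0.5411 and 3.191, against 75.47, 32.26 and 165.9 TPM here. These genes have processed pseudogenes that can take some of their reads, and the pseudogene-labelled Rpl34-ps1 stood at 429.9 ± 37.2 TPM (SD, n = 4) in young muscle, above Rpl34 itself (132.0 ± 16.1 TPM). The values of Rpl26, Rpl30 and Rpl34 are therefore uncertain.

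The age comparison asked how young and aged quadriceps differ under vehicle. Large subunit mRNAs had higher mean levels in aged muscle of batch 1, most of them by a small amount. Of 49 members, 48 had a log2 difference above 0, where 61.2% of all genes tested had one, and the members' median was 0.26 beside 0.06 for all genes. In 32 members the lowest aged library exceeded the highest young one, which held for 8.85% of all genes, and no member showed the opposite. A total of 31 members had an unadjusted limma p under 0.05, as did 9.92% of all genes. After Benjamini-Hochberg adjustment over all genes only Rplp0 was called higher, as were 0.37% of all genes. With 3 other scalings of the TPM between 45 and 46 of 49 members stayed above 0, with Rpl3l and Rpl38 below 0 in each.

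Rplp0, the stalk protein that anchors the acidic proteins P1 and P2 to the ribosome, stood at 843.9, 869.1, 765.6 and 779.8 TPM in young muscle and at 1065, 1083 and 1204 TPM in aged muscle of batch 1. The groups did not overlap, and the gap between them was wider than the range within either. The log2 difference was 0.46 (SE 0.09, limma adjusted p = 0.042), a 1.37-fold higher level. This call was lost in each of the 7 fits that omitted 1 library, with adjusted p between 0.057 and 0.15 and differences of 0.40 to 0.49. It also ended under each of the other scalings (adjusted p of 0.094 to 0.19) and when only the 2 groups entered the fit (0.090).

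The other stalk genes differed less. Rplp1 was between 1481 and 1557 TPM in young muscle and at 1653, 1586 and 2038 TPM in aged muscle, a log2 difference of 0.21 (SE 0.09, limma adjusted p = 0.48). Its groups did not overlap, but aged replicate 4 stood well above the other aged libraries. Rplp2 overlapped between groups, with 680.3 to 785.0 TPM in young and 747.4 to 1006 TPM in aged muscle (log2 difference 0.21, SE 0.14).

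Next to Rplp0 in the ranking by p stood genes whose adjusted p missed 0.05. Rpl41 was at 882.0 to 1198 TPM in young muscle and at 1474, 1431 and 1717 TPM in aged muscle (log2 difference 0.55, SE 0.12, limma adjusted p = 0.067). Rpl19, a protein that reaches across to the small subunit, was at 514.0 to 528.3 TPM in young muscle, the tightest young group among these, and at 657.7, 663.8 and 803.5 TPM in aged muscle (0.44, SE 0.10, adjusted p = 0.068). Rpl35, at the tunnel exit, differed by 0.39 (SE 0.10, adjusted p = 0.098). Rpl13a, known also as part of a translational silencing complex of interferon-treated cells, differed by 0.49 (SE 0.12, adjusted p = 0.099). In all 4 of these genes every aged library was above every young one.

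Some large differences belonged to genes with a wide spread. Rpl26, known also to bind p53 mRNA, was at 71.96, 36.05, 40.67 and 33.55 TPM in young muscle and at 125.4, 117.3 and 134.3 TPM in aged muscle (log2 difference 1.51, SE 0.43, limma adjusted p = 0.17). Rpl3 differed by 0.59 (SE 0.24), Rpl34 by 0.51 (SE 0.24) and Rpl30 by 0.49 (SE 0.42), each with overlapping groups. At the other end stood Rpl39l at -0.40 (SE 0.27), with levels of 0.38 to 1.60 TPM in young muscle and 0 to 1.12 TPM in aged muscle, Rpl3l at 0.03 (SE 0.08), Rpl38 at 0.07 (SE 0.14), Rpl29 at 0.08 (SE 0.08) and Rpl37 at 0.12 (SE 0.12). None of these 9 differences passed the test, and that of Rpl39l was partly set by the level filter.

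Genes of proteins with known roles in assembly or beyond the ribosome differed by amounts near the median. Rpl5 and Rpl11, which with 5S RNA form the particle that binds MDM2 when ribosome assembly fails, differed by 0.27 (SE 0.13) and 0.25 (SE 0.11). Rpl10, which closes the assembly of the subunit, differed by 0.27 (SE 0.09) and Rpl4, which lines the tunnel, by 0.29 (SE 0.10). None of these 4 differences passed the test (limma adjusted p from 0.29 to 0.50).

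Aged replicate 4 of batch 1 stood apart from the other aged libraries. Against the mean of the young libraries, the median of the 49 members was 0.18 in aged replicate 2, 0.15 in replicate 3 and 0.45 in replicate 4, and it was between -0.05 and 0.08 in the young libraries. All 3 aged libraries of batch 1 were above all young ones on this measure. Replicate 4 is the library with 1780 TPM of neutrophil transcripts. Without it the members' median difference was 0.17 and 47 of 49 members were above 0, so nearly as many were above 0 and the size was smaller. Markers of fibro-adipogenic progenitors, the connective tissue cells between fibres, also moved with age. All 10 were at 1 TPM or more in every library of both groups, and they summed to 494 to 585 TPM in young muscle and to 235, 390 and 474 TPM in aged muscle of batch 1, without overlap. Their sum was also below that of young muscle in aged vehicle muscle of batch 2 (299 to 395 TPM) and with SW033291 (216 to 383 TPM). T cell markers summed to 0.15 to 0.44 TPM in young and 0.72 to 1.2 TPM in aged muscle, near 0 in both. Their part in the result was not tested.

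**Figure D2:**
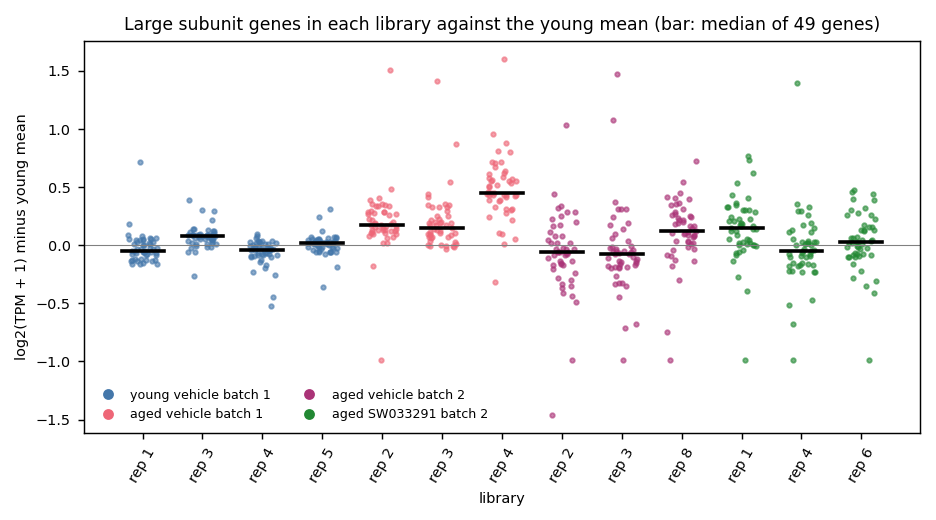
Each point is a large subunit gene in 1 library, as log2(TPM + 1) minus the mean of the 4 young libraries, and each black bar is the median of the 49 genes. The bars of the 3 aged vehicle libraries of batch 1 lie at 0.15, 0.18 and 0.45. Those of aged vehicle of batch 2 lie between -0.07 and 0.12, and those with SW033291 between -0.05 and 0.15.

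The aged vehicle libraries of batch 2 did not show the same displacement from the young libraries of batch 1. Their member medians against the young mean were -0.06, -0.07 and 0.12 in replicates 2, 3 and 8, within or near the range of the young libraries, while the median of all genes was 0.13 to 0.20. In this contrast the effects of age and of batch cannot be told apart. Of the members, 24 had differences above 0 and 25 below 0. The lowest aged library of batch 2 exceeded the highest young one in 7 members, Rpl4, Rpl5, Rpl7, Rpl10, Rpl19, Rpl21 and Rpl22, where 28.4% of all genes did so. They lay below in Rpl11, Rpl28 and Rpl29, where 5.84% of all genes did so, and in Rpl39l, which passed the level filter through the young libraries. The fit called 3 members higher (Rpl10, Rpl4 and Rpl7), as it did 12.2% of all genes. It called Rpl28 lower, as it did 1.94% of all genes. It also called Rpl39l lower, a call that the filter could set.

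A total of 5 of 49 members were above the young libraries in both aged vehicle groups, as were 4.8% of all genes. They were Rpl4, Rpl7, Rpl10, Rpl19 and Rpl22. Rpl10 was at 778.0 to 861.0 TPM in young muscle, at 931.6, 981.6 and 1022 TPM in batch 1 aged mice and at 1005, 1102 and 1180 TPM in that of batch 2. Rpl4 was at 852.5 to 940.7 TPM in young muscle, at 992.3, 998.9 and 1288 TPM in batch 1 and at 1082, 1150 and 1210 TPM in batch 2. Rpl22, which binds RNA and is known from T cell development, was at 84.75 to 94.06 TPM in young muscle, at 97.39, 101.4 and 145.9 TPM in batch 1 and at 104.7, 111.0 and 113.2 TPM in batch 2. In each of these 3 genes the 6 aged libraries, of both batches, lay above the 4 young ones. The means of the 2 aged vehicle groups were also averaged with equal weight and set against young. In this contrast limma called 4 members higher, as it did 4.23% of all genes: Rpl10 (0.35, SE 0.08, adjusted p = 0.026), Rpl19 (0.33, adjusted p = 0.039), Rpl4 (0.33, adjusted p = 0.042) and Rplp0 (0.29, adjusted p = 0.044). The difference between the batches is not part of the spread that this contrast uses.

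**Figure D3:**
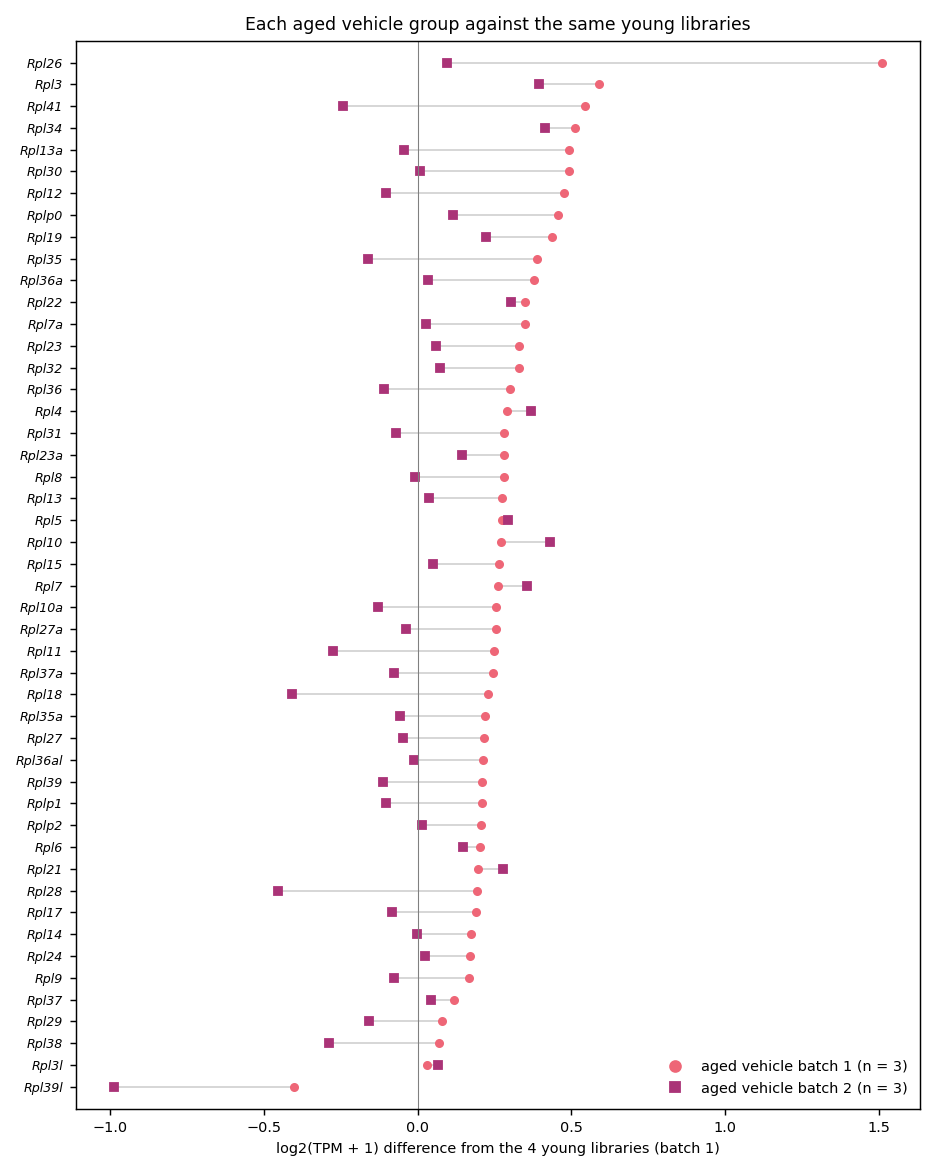
Log2(TPM + 1) differences of each aged vehicle group from the same 4 young libraries, for 48 large subunit genes ordered by the difference in batch 1 (circles), with batch 2 as squares. The circles lie above 0 except for Rpl39l, whose difference was partly set by the level filter, while the squares lie on both sides of 0.

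Between the batches of aged vehicle mice, most large subunit mRNAs had lower mean levels in batch 2. Of 49 members, 43 had a log2 difference below 0 and 6 above, while 64.2% of all genes were above 0. The members' median was -0.27 beside 0.11 for all genes, and it was between -0.34 and -0.17 without 1 library, smallest in size without aged replicate 4 of batch 1. The libraries of batch 2 lay below all those of batch 1 in 22 members, as in 4.64% of all genes. Limma called 8 members lower, as it did 0.53% of all genes, and none higher. With the libraries scaled by the median of gene ratios, the median of all genes shifted from 0.11 to -0.01, the members' median was -0.42 and 1 of 49 was above 0.

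The largest called difference was that of Rpl41, at 1474, 1431 and 1717 TPM in aged libraries of batch 1 and at 856.1, 771.7 and 1064 TPM in those of batch 2. The groups did not overlap, and young muscle (882.0 to 1198 TPM) lay between them with some overlap with batch 2. Rpl41 fell by 0.79 on the log2 scale (SE 0.13, limma adjusted p = 0.014). Rpl28 was at 774.3, 725.7 and 684.0 TPM in batch 1 and at 497.4, 388.4 and 517.5 TPM in batch 2. It fell by 0.65 (SE 0.11, adjusted p = 0.014), and its batch 2 libraries were also below all 4 young ones (625.4 to 650.6 TPM).

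Rpl18 was at 557.2, 584.4 and 498.5 TPM in batch 1 and at 361.3, 290.3 and 411.3 TPM in batch 2, and it fell by 0.64 (SE 0.14, limma adjusted p = 0.038). Rpl12, which sits at the base of the stalk, fell by 0.58 (adjusted p = 0.046), Rpl35 by 0.55 (0.021), Rpl13a by 0.53 (0.050 after rounding) and Rpl11 by 0.52 (0.038). Among these genes, 5 meet the rule for an oligopyrimidine start at the annotated start (Rpl12, Rpl13a, Rpl18, Rpl28 and Rpl35) and 2 (Rpl11 and Rpl41) do not. Start sites were not measured, so this split cannot show which mRNAs have a TOP tract. The median difference between batches was -0.32 over the 16 members with such a start and -0.25 over the 21 without. With age the medians were 0.26 in both sets.

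The 6 members above 0 between batches were Rpl10 (0.16), Rpl7 (0.09), Rpl21 (0.08), Rpl4 (0.08), Rpl3l (0.03) and Rpl5 (0.02), with SE from 0.09 to 0.14. None passed the test, and with the median of gene ratios as scaling Rpl10 was the only member above 0. Rpl26 differed by -1.41 (SE 0.46, limma adjusted p = 0.12), with 31.79, 122.1 and 25.46 TPM in batch 2. Rpl39l was listed at 0 TPM in all 6 libraries of batch 2. Pseudogene-labelled copies of some members had higher mean levels in batch 2. Their log2 differences were 1.58 (SE 0.26) for Rplp2-ps1, 0.93 (SE 0.21) for Rpl14-ps1 and 0.85 (SE 0.35) for Rpl31-ps12. Rpl34-ps1 was at -0.11 (SE 0.17). Whether reads of the members were shared with these copies was not tested.

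The calls between batches rested on few libraries, over all genes as in the members. Among all genes 267 were called in either direction, and that count was 1 when only the 2 groups entered the fit, 18 without aged vehicle replicate 2 of batch 1 and 21 without replicate 2 of batch 2. No member was called in these 3 fits, while the members' medians were -0.27, -0.33 and -0.25 and the differences of Rpl41 were -0.79, -0.82 and -0.76. Without replicate 3 of batch 2, 21 of all genes were called and Rpl26 was the only member among them. Without replicate 3 of batch 1 there were 5 member calls (Rpl11, Rpl28, Rpl35, Rpl36 and Rpl41) among 185, and without replicate 8 of batch 2 there were 12 among 478. Without replicate 4 of batch 1 there were 9 among 1643. Without the 2 libraries of these groups that held over 100 TPM of neutrophil markers the members' median was -0.15 and 5 members were called among 1088 genes, with Rpl18, Rpl28, Rpl35 and Rpl41 among the 5.

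Transcript length moved with the batch difference. The members' principal transcripts in the GENCODE annotation were short, with a median of 914 bases against 2940 bases for all genes. Over all genes with a length, the batch difference had a Spearman correlation with length of 0.445, a description across genes that share the same libraries. The 689 genes under 1000 bases, a length chosen after the values were seen, had a median of -0.20 and the 10315 longer ones 0.13. Members stood lower in both classes, at -0.31 over 27 shorter genes and -0.25 over 22 longer ones. The part of length in the batch difference was not tested.

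The comparison of SW033291 with vehicle asked how inhibition of 15-PGDH changes aged muscle. No member was called with SW033291, as was none of all genes (0.0%), and no member had an unadjusted limma p under 0.05, where 10.3% of all genes did. The members' median log2 difference was 0.04 beside -0.13 for all genes. Of 49 members, 33 were above 0, where 28.9% of all genes were, 15 were below and Rpl39l, listed at 0 TPM in all 6 libraries, was at 0. With the median of gene ratios as scaling 47 of 49 were above 0, with a median of 0.19 beside 0.00 for all genes. Treated and vehicle libraries overlapped in every member but Rpl9, a protein near the factor binding site, which was at 787.2, 651.8 and 632.0 TPM with SW033291 and at 610.3, 620.4 and 608.4 TPM with vehicle (log2 difference 0.16, SE 0.10, limma adjusted p = 0.57). Groups that did not overlap in this direction made up 1.95% of all genes. Transcript length moved with this comparison as well, with a Spearman correlation of -0.375 over all genes. The 689 genes under 1000 bases had a median of 0.0393 and the 10315 longer ones -0.14, beside 0.0495 and 0.0309 for the shorter and longer members. The part of length was not tested.

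The members with the most positive differences were Rpl26 (0.72, SE 0.46), Rpl35 (0.19, SE 0.10), Rpl38 (0.19, SE 0.15), Rpl41 (0.19, SE 0.13) and Rpl39 (0.17, SE 0.15). Those with the most negative were Rpl30 (-0.19, SE 0.45), Rpl3 (-0.12, SE 0.26), Rpl34 (-0.11, SE 0.26), Rpl22 (-0.07, SE 0.13) and Rpl7a (-0.07, SE 0.15). The first 5 stayed above 0 without any 1 library of these groups, but their sizes moved. Rpl26 was between 0.29 (without vehicle replicate 8) and 1.40 (without vehicle replicate 3), Rpl38 between 0.0906 (without vehicle replicate 2) and 0.32 (without vehicle replicate 8), and Rpl41 between 0.0879 (without vehicle replicate 3) and 0.32 (without vehicle replicate 8). Rpl35 ranged from 0.13 to 0.27 and Rpl39 from 0.11 to 0.28. None of these 10 passed the test, and the direction of each of the last 5 changed under a scaling or without 1 library. Against the young mean, the member medians of the treated libraries were 0.15, -0.05 and 0.03 in replicates 1, 4 and 6, within the range of the vehicle libraries of batch 2 but for replicate 1. Without the libraries that held over 100 TPM of neutrophil markers the members' median was 0.08 and no member was called.

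The authors' deposited table of SW033291 lists all 50 names, and 48 of the 49 members have a p-value there. There, 4 members have an unadjusted p under 0.05, Rpl21, Rpl3l, Rpl6 and Rpl9, as do 2.74% of the genes with a p. The authors' deposited table gives Rpl3l a log2 fold change of 0.30 (SE 0.13, p = 0.0214), where the difference here was 0.10 (SE 0.09). Its median over the members is 0.18 beside -0.01 for genes whose mean level is 50 or more. None of the members is among the 813 genes of the authors' deposited age table, whose adjusted p reach 0.0999.

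Rpl3l and Rpl3 encode alternative forms of a protein that reaches to the peptidyl transferase centre. Rpl3l was the main form in every library. It was at 743.9, 754.1, 722.5 and 750.8 TPM in young muscle, at 793.4, 737.6 and 747.7 TPM in aged mice of batch 1, at 714.8, 773.5 and 848.6 TPM in aged vehicle muscle of batch 2 and at 842.7, 892.4 and 775.5 TPM with SW033291. Rpl3 was at 65.43, 76.79, 54.08 and 54.39 TPM, at 62.90, 114.1 and 115.0 TPM, at 75.62, 70.09 and 103.2 TPM and at 106.6, 67.16 and 58.75 TPM in the same order. The lowest Rpl3l library thus stood far above the highest Rpl3 library, and Rpl3l made up 86.6% to 93.2% of the TPM of both.

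**Figure D4:**
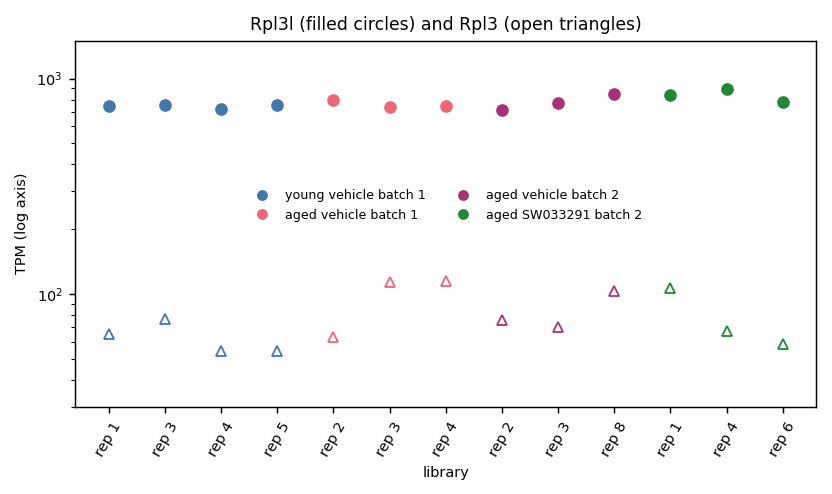
TPM of Rpl3l (filled circles) and Rpl3 (open triangles) on a log axis in the 13 libraries, coloured by group. Rpl3l stays between 715 and 892 TPM, while Rpl3 ranges from 54.1 to 115 TPM and is highest in aged replicates 3 and 4 of batch 1.

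The ratio of Rpl3l to Rpl3 was 11.4, 9.82, 13.4 and 13.8 in young muscle and 12.6, 6.46 and 6.50 in aged muscle of batch 1. It was 9.45, 11.0 and 8.22 in aged vehicle muscle of batch 2 and 7.90, 13.3 and 13.2 with SW033291. In aged muscle of batch 1, 2 of 3 libraries lay below every young one, while replicate 2 lay among them. The mean log2 ratio was 3.02 ± 0.55 (SD, n = 3) in aged and 3.58 ± 0.23 (SD, n = 4) in young muscle, a difference of -0.57 (two-sided exact permutation test, p = 0.171, adjusted over 3 comparisons 0.513), where the smallest p the design allows is 0.0571. With SW033291 the log2 ratio differed by 0.23 (exact permutation p = 0.4, adjusted 0.6) and between batches by 0.23 (exact permutation p = 0.6), where 3 against 3 libraries cannot go below 0.1. The sizes of these differences moved with single libraries, though no direction changed. Without 1 library the difference with age was between -0.89 (without aged replicate 2) and -0.40 (without aged replicate 3), that with SW033291 between 0.10 (without treated replicate 4) and 0.48 (without treated replicate 1), and that between batches between 0.0691 (without replicate 3 of batch 1) and 0.55 (without replicate 2 of batch 1). Across libraries within a batch the levels of Rpl3 and Rpl3l showed no relation that passed a test. In batch 1 Pearson's r was -0.0932 (exact permutation p = 0.956) and Spearman's rho 0.0714 (p = 0.906, n = 7), and r was 0.327 without the 2 libraries farthest from the median of Rpl3. In batch 2 r was 0.33 (exact permutation p = 0.494) and rho 0.0286 (p = 1.0, n = 6), and r was -0.347 without 2 such libraries. Both p adjusted over the 2 batches were 0.956.

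Genes whose log2 level followed that of Rpl3l most closely over the 13 libraries were Klk1b26 (Pearson's r 0.889), Calml4 (0.873), Prkrip1 (0.849), Ece2 (0.823) and Pcsk4 (0.812). They were picked as the 5 highest of 11875 genes over libraries of all groups and both batches. Their r values are thus partly set by that choice and were not tested. Their mean levels of 0.914 to 13.4 TPM were far below that of Rpl3l.

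Other members also have a paralog beside them. Rpl36al and Rpl36a, whose proteins are near identical, stood at a ratio of 1.28 to 1.94, with the lowest value in aged replicate 4 of batch 1. Rpl22l1, the paralog of Rpl22 and no member by the naming rule, was more abundant than Rpl22 in every library. Its ratio to Rpl22 was 3.37, 3.99, 4.18 and 5.06 in young muscle, 2.70, 3.01 and 3.03 in aged muscle of batch 1, 2.21, 2.39 and 2.13 in aged vehicle muscle of batch 2 and 3.20, 3.62 and 1.61 with SW033291. The 6 aged vehicle libraries lay below the 4 young ones, a pattern chosen after the values were seen and not tested. Rpl22l1 itself stood at 367.9 ± 64.2 TPM (SD, n = 4) in young and 336.1 ± 91.9 TPM (n = 3) in aged muscle of batch 1 (log2 difference -0.15, SE 0.23). In aged vehicle muscle of batch 2 it was at 240.8 to 250.3 TPM. These values lay below those of young muscle (285.9 to 442.6 TPM), as in 5.84% of all genes. Rpl7l1, a paralog of Rpl7 with a role in ribosome assembly, was at 26.3 ± 2.1 TPM in young muscle and differed by -0.06 (SE 0.12).

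Small subunit genes ran in parallel with those of the large subunit. The summed TPM of the large subunit was 1.27 to 1.35 times that of the 34 small subunit genes tested. With age 33 of the 34 were above 0, as were 61.2% of all genes, with a median of 0.29 beside 0.06. In 21 every aged library of batch 1 exceeded every young one, as in 8.85% of all genes, and none was called. Between batches 30 were below 0, with a median of -0.27 beside 0.11 for all genes. Limma called 5 lower, as it did 0.53% of all genes. They were Rps16, which fell by 0.73 (SE 0.10, limma adjusted p = 0.0061), Rps28 (-0.88), Fau (-0.62), Rps2 (-0.52) and Rps9 (-0.50). With SW033291 24 were above 0, as were 28.9% of all genes, and none was called. Fau encodes a small subunit protein fused to a ubiquitin-like protein.

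The mitochondrial large subunit, which is encoded by separate Mrpl genes, had 37 of 48 genes above 0 with age. Their median was 0.11 beside 0.06 for all genes, and none was called. Between batches 37 were below 0 and 2 were called lower, Mrpl34 (-0.76) and Mrpl39 (-0.67), as were 0.53% of all genes. The assembly factors of the large subunit had medians of 0.07 with age and 0.18 between batches over 68 genes, beside 0.06 and 0.11 for all genes. Of these, 2 were called higher in batch 2, Ftsj3, a methyltransferase of ribosome assembly (0.59), and Heatr3, which helps to bring Rpl5 to the nucleus (0.49). Of 18 genes of RNA polymerase I and ribosomal RNA synthesis none was called with age, and Polr1a, its largest subunit, was higher in batch 2 (0.80).

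Other mRNAs known for a TOP start had 22 of 26 genes above 0 with age at a median of 0.22 beside 0.06 for all genes, and none was called. Between batches they did not share a direction, with 10 above and 16 below 0. Pabpc1, the cytoplasmic poly(A)-binding protein, rose by 0.55 (SE 0.12, limma adjusted p = 0.031) and Fau fell. Of 20 genes that control ribosomal protein genes and their translation none was called with age. Larp1 (0.55), Mtor (0.72) and Rptor (0.70) were higher in batch 2 than in batch 1, with limma adjusted p of 0.046, 0.037 and 0.037. With SW033291 16 of these 20 genes were below 0 and none was called, at a median of -0.26 beside -0.13 for all genes. The calls between batches of Larp1, Mtor, Rptor, Pabpc1, Polr1a, Ftsj3 and Heatr3 stand beside 267 calls among all 11876 genes, 63 of them lower. That batch difference had a Spearman correlation of 0.445 with transcript length over all genes. The part of length in these calls was not tested.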

How the data were processed

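Total RNA of quadriceps was sequenced in 13 libraries (TruSeq kit, per the labels' protocols). The submitters' processing notes name the build mm9 and the tools STAR, RSEM, DESeq and DESeq2, with no version or order. A table of TPM for 24015 genes was deposited, without counts, so depth and counting error are unknown. The authors' deposited tables hold log2 fold changes with SE, p-values, a DESeq2 test statistic (a score) and mean normalised levels (a signal), per the file headers.

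Gene names of the TPM table were not on their own rows. Names turned into dates (27) were restored and all names were sorted in byte order. Across genes, mean TPM and the authors' mean level then had a Spearman correlation of 0.950 (-0.0171 as deposited) over 23988 genes, and the SW033291 log2 differences a Pearson correlation of 0.913 (-0.0130 as deposited) over 6361 genes.

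Limma 3.58.1 in R 4.3.3 was fitted to log2(TPM + 1) of the 11876 genes at 1 TPM or more in 3 or more libraries, with 1 coefficient per group over all 13 libraries and a trended prior. Calls are at a Benjamini-Hochberg adjusted p under 0.05 over all these genes. Differences are on the log2(TPM + 1) scale and understate those of low genes. The fit was tested on simulated data. Single ratios were tested by exact permutation over libraries. The alternatives were other pseudocounts, filters, scalings, fits and libraries.

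Members and gene lists were chosen with earlier results of these data known. Genes described singly were those called, the 5 most positive and most negative in each comparison, the 3 most and least abundant, the stalk, paralogs, the 5S particle, Rpl4, Rpl10, Rpl13a and Rpl41, and Fau. Some items that this rule selects are not reported here. Promoter sequences are those of RefSeq on GRCm38.p6.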

Additional observations from a re-analysis of the deposited data

Results flagged for a closer look

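In 3 of 49 members 1 young library stood apart from the other 3, with a gap to its nearest neighbour, as a share of the group's range, above the critical value of Dixon's test. Chance gives such a gap in about 1 in 20 groups. Rpl15 was at 201.6 TPM in young replicate 1 against 230.5 to 235.7 TPM in the others, and Rpl27a was at 235.7 TPM in the same library against 261.0 to 266.0 TPM. Rpl8 was at 525.5 TPM in young replicate 4 against 570.2 to 573.7 TPM.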

How the results depend on the processing

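The count of members called with age (1) was 0 with no filter, with each of 3 scalings, with no trend, with only the groups compared, with a replicate block, and in each fit without 1 library (0 to 0). It was 5, Rpl39l included, with aged libraries of batch 2 and 4 with both batches. The members' median with age was 0.12 with quantile normalization, -0.0023 with batch 2 and 0.13 with both batches, and 0.17 to 0.32 without 1 library. With SW033291 it was 0.19 with the median of ratios and -0.0079 to 0.12 without 1 library. Between batches the count of 8 was 3 with no filter, 3 with quantile normalization, 2 with no trend, 0 with only the groups compared, 0 to 12 without 1 library and 5 without libraries high in neutrophil markers, an alternative added after seeing the data. The median was -0.42 with the median of ratios and -0.34 to -0.17 without 1 library.

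Same-numbered deviations correlated at -0.147 to 0.171, so no pairing by replicate number was seen, though these few correlations cannot exclude one. With the replicate block Rpl3l was at -0.0408 between batches. Only replicates 2 and 3 occur in both aged vehicle groups, so that fit rests on few libraries.

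With batch 2, 25 of 49 members were below 0 against young, among them Rplp1 (-0.10), Rpl35 (-0.16) and Rpl11 (-0.28). Among Rplp0 and the 5 members at each end of the ranking by size, directions that changed with age were those of Rpl38 (-0.0041 with the median of ratios, -0.063 quantile, -0.0298 without the 20 most abundant genes, -0.29 batch 2, -0.11 both batches), Rpl29 (-0.0315, -0.0184, -0.16 and -0.0394 in the last 4), Rpl3l (-0.0408, -0.13 and -0.0665 in the first 3), Rpl13a (-0.0433) and Rpl41 (-0.24), both with batch 2. With SW033291, the median of ratios gave 0.0733 for Rpl22, 0.0218 for Rpl3, 0.0352 for Rpl34 and 0.075 for Rpl7a, and quantile normalization 0.0415 for Rpl22. Without libraries high in neutrophil markers Rpl34 was at 0.40 and Rpl7a at 0.10. Between batches the median of ratios gave -0.0617 for Rpl21, -0.11 for Rpl3l, -0.0655 for Rpl4 and -0.0498 for Rpl7. Without 1 library Rpl38 (-0.0927 to 0.19) and Rpl3l (-0.0002 to 0.0524) with age, Rpl3 (-0.38 to 0.0489), Rpl30 (-0.92 to 0.34), Rpl34 (-0.34 to 0.20) and Rpl7a (-0.19 to 0.14) with SW033291, and Rpl3l (-0.0298 to 0.0938) between batches took both directions. The cause was not tested. TPM without counts give no limit of detection.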
